A study of Rattus norvegicus with 8 samples.

Results

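Potassium channel genes are described here as the probes of a rat expression array that are not control spots and whose gene name begins with Kcn and a further letter, the systematic root for potassium channel subunits. The rule takes 134 probes of 93 genes, out of 30350 probes under 26204 gene names on the array. It uses names only and no measured value. By role, 40 of the genes encode pore subunits of voltage-gated channels, 15 inward rectifiers, 14 the 2-pore-domain channels, 7 pore subunits of calcium- or sodium-activated channels, 16 auxiliary subunits and 1, Kcnrg, a regulator.

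The study hybridised RNA of immature rat ovaries to 8 Agilent one-colour arrays. The 2 groups hold 4 arrays each, with the label control or PMSG, the gonadotropin of pregnant mare serum, which acts mainly like follicle-stimulating hormone and drives growth of antral follicles. At 26 days of age the rats received an injection under the skin of phosphate buffer with albumin, 0.2 ml in volume, which for the PMSG group carried a dose of 50 IU and for controls no hormone. Ovaries were removed after 48 h, at 28 days of age, so both groups are ovaries of prepubertal animals. The labels call the arrays of a group replicates without saying whether each is 1 animal or a pool, so the tests below measure the spread between these RNA samples. Groups follow the sample titles, and the wording "labelled PMSG" is kept because Lhcgr, Star and Cyp11a1, which gonadotropin is generally known to raise, were all lower on the arrays labelled PMSG. Every direction below rests on those titles.

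Potassium channels let potassium ions leave or enter a cell along their gradient and so set its resting potential, its excitability and part of its volume control. A channel is built from pore subunits, as tetramers in the voltage-gated, inward rectifier and calcium-activated families and as dimers in the 2-pore-domain family, and auxiliary subunits change how the pore opens, closes and reaches the membrane. In the ovary, potassium currents are known from granulosa cells, luteal cells, oocytes and vascular smooth muscle. A whole-ovary array adds all of these together, and fewer cells of a type cannot be told apart from less RNA per cell.

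Each probe is a single 60-base stretch, and what a probe reads depends on where that stretch lies. The probes printed here are those on which a result turns. They are copied from the deposited array files, and positions are those of the rat build rn4 named in the file headers. Capitals mark GGA repeated at least 4 times in a row. Kcng1, a silent subunit that joins other voltage-gated pores, has 4 probes, of which the first pair is largely repeat and is shown by a stretch of 30 bases only.
Kcng1 A_64_P104301, bases 18 to 47: GGAGGAGGAGGAGGAGGAGGAGGAGGAGGA
Kcng1 A_64_P124781, bases 19 to 48: GGAGGAGGAGGAGGAGGAGGAGGAGGAaga
Kcng1 A_64_P097376: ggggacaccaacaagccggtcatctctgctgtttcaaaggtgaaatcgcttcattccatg
Kcng1 A_64_P097372: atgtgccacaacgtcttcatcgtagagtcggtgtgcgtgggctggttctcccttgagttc
The 4 lie at chr3:159427597-159427617, chr3:159427597-159427643, chr3:159427825-159427884 and chr3:159429234-159429293. Of the repeat probes, the first shares an unbroken stretch of at least 30 bases with 11 probes that carry other gene names (the longest is 45 bases) and the second with 9 (the longest is 38 bases). Among the other members no such shared stretch was longer than 19 bases. The other probes are shown because probes of 1 gene read differently, or, for Kcne1, because a clear fall rests on a single tested probe. The Kcnk2 probe lies at chr13:105419270-105419329, the Kcnma1 probes at chr15:323124-323183 and chr15:949056-949115, 626 kb apart, and the Kcne1 probe at chr11:32344803-32344862. None of these 4 holds the GGA repeat.
Kcnk2 A_64_P053471: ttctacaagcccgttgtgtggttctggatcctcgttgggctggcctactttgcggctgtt
Kcnma1 A_64_P131632: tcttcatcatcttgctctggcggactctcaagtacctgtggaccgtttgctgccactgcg
Kcnma1 A_44_P259947: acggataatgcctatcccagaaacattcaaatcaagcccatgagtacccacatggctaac
Kcne1 A_44_P121280: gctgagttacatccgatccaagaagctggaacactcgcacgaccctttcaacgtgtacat

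The array-wide picture frames these genes. Levels are given as log2 processed signal minus the array's 75th percentile, so 0 is the 75th percentile and a difference of 1 is 2-fold. Arrays correlated at 0.987 to 0.993 within the control label, 0.977 to 0.991 within the PMSG label and 0.960 to 0.972 between labels. PMSG array 4 had the lowest limma array weight, 0.279 against 0.673 to 1.95 for the others. The 75th percentile of signal used for scaling was 769 on PMSG array 3 and 983 on PMSG array 1, against 1002 to 1103 on the others. The part of this scaling in the levels of dim probes on those arrays was not tested. Markers of the labelled tissue were present: each measured granulosa, theca and oocyte marker on the lists gave signal well above background on 8 of 8 arrays. Several cell type lists differed between labels, on an array where 34.5% of all genes were called, 18% higher and 16.5% lower. All 8 oocyte markers were higher on the PMSG-labelled arrays, with a summed linear level of 10.4 to 22.5 times the 75th percentile against 3.00 to 5.37, as were 6 of 9 markers of oviduct and other epithelium (30.4 to 46.7 against 17.0 to 23.2) and 4 of 6 leukocyte markers (11.1 to 12.6 against 6.99 to 8.72). The 4 genes listed for luteinised cells (Lhcgr, Star, Cyp11a1 and Prlr) were all lower (7.51 to 23.0 against 118 to 135). Whether they mark such cells in these prepubertal ovaries was not tested. Of 8 endothelial markers 4 were lower and 1 higher (17.3 to 18.7 against 21.2 to 24.8). None of 6 smooth muscle markers passed (73.7 to 132 against 105 to 155). Of 6 neuron markers 2 rose and 1 fell, of 6 granulosa markers 1 rose and 2 fell, and of 2 theca markers 1 rose. The part of these cell types in the results on potassium channels was not tested.

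Potassium channel transcripts were more often higher than lower on the PMSG-labelled arrays. Of 74 genes that could be tested by their brightest probe, 20 were higher, 5 were lower and 49 did not pass the adjusted threshold of 0.05 in limma. Over all genes 34.5% were called, 18% higher and 16.5% lower, so the 33.8% of channel genes called lies near the array's background while the calls fell mostly in 1 direction. Calls of dim probes leaned the same way across the array. In the lowest of 4 bins of mean signal, 17.0% of all probes were higher and 5.91% lower. By probe, 31 of 101 were called, 26 higher and 5 lower, against 34.2% of all probes, of which 17.6% were higher and 16.6% lower. A 2-fold difference with a call was seen for 12 genes that were higher and 2 that were lower, against 7.33% and 4.67% of all genes (12% together). These 14 became 7 with normexp background correction and 2 when the test was against a log2 difference of 1. The groups did not overlap for 23 of the 74 genes, against 37% of all genes. The median difference of the channel genes was 0.53, with 59 of 74 above 0, and that of all genes was 0.12, with 58.8% above 0. Centring on the array median moved the median over all probes from 0.11 to -0.05, and the split of all calls from 17.6% higher and 16.6% lower to 11.5% and 21.9%. The channel probes' median was then 0.37 with 17 genes higher and 5 lower, and under quantile normalization it was 0.36 with 20 and 6.

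**Figure D1:**
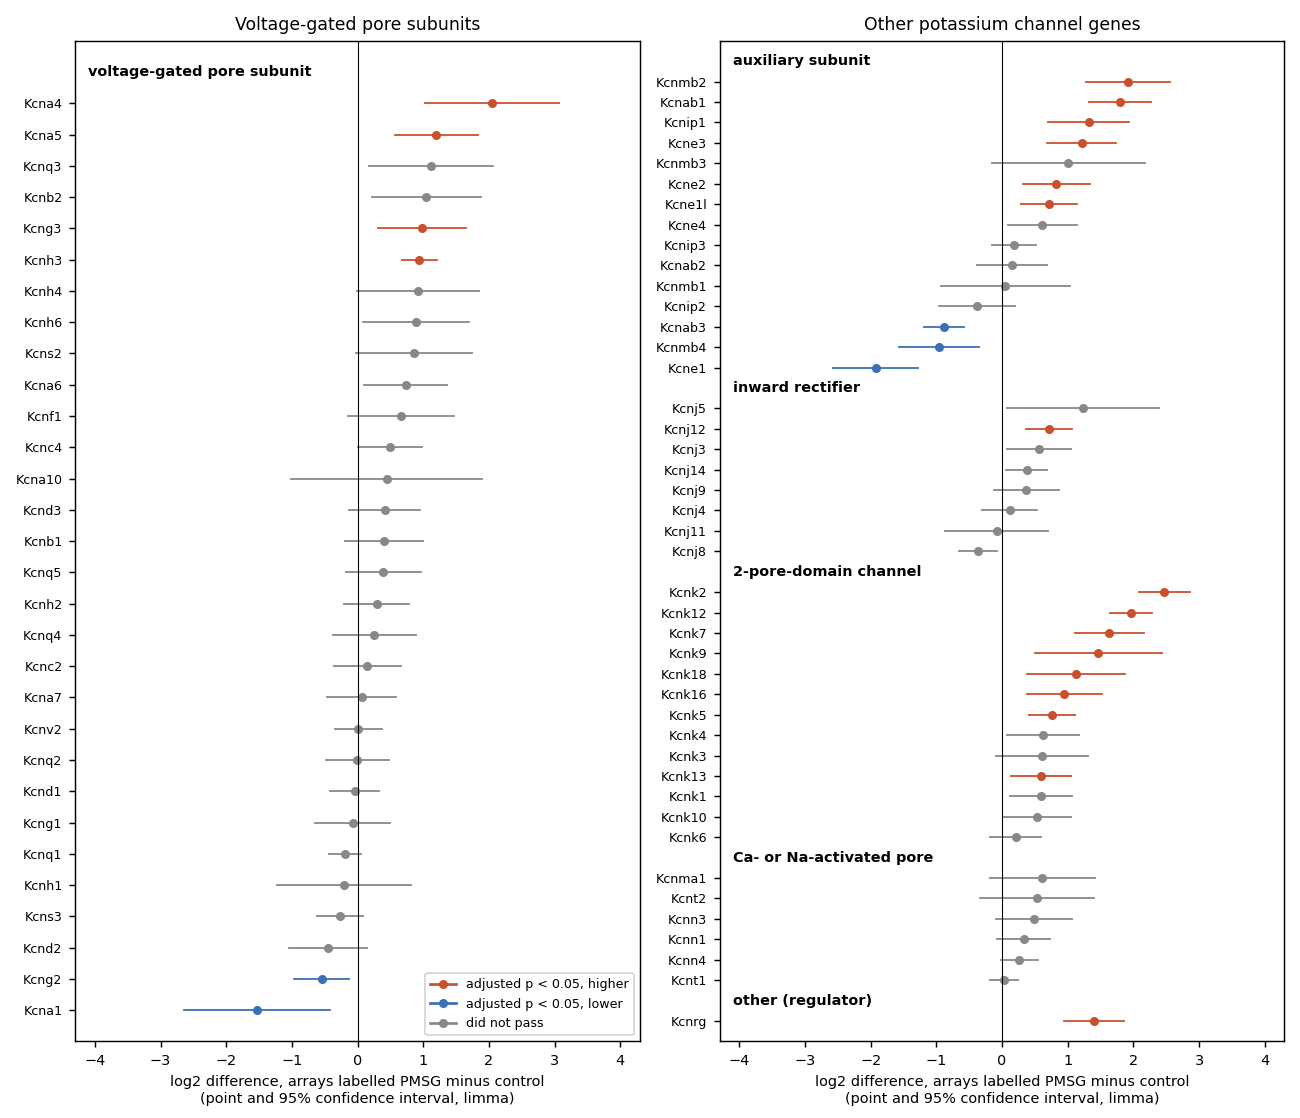
Difference of each tested gene's brightest probe between the arrays labelled PMSG and control (log2, x axis), with the 95% confidence interval from limma, grouped by role. Red points were higher and blue points lower at an adjusted p under 0.05, and grey points did not pass (1 voltage-gated gene that did not pass is not drawn); all 13 of the 2-pore-domain genes lie to the right of 0, from 0.21 to 2.47.

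The count of calls depended on single arrays. Without PMSG array 4 the call was made for 36 genes higher and 4 lower, and the share of all probes called then rose to 45.0%. That share was 27.6% higher and 17.4% lower. Without control array 4 there were 15 higher and 2 lower calls, and the share of all probes called fell to 25.9% (12.9% higher and 13.0% lower). Of the 40 genes called without PMSG array 4, 23 were among the 25 called with all arrays and 17 were gained. All 25 called genes had the same direction in both rows of the slide, the only position split the arrays allow, with differences of 0.44 to 2.25 in size in row 1 and 0.36 to 2.74 in row 2. For most called genes the groups did not overlap, which fixes that direction in advance. The agreement is therefore no separate support for the calls.

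The 2-pore-domain channels were higher or did not pass, and Kcnk2 had the largest difference of the tested members. These dimers carry the background leak of potassium that holds the resting potential, and several are gated by stretch, lipids or pH. Of 13 tested genes 8 were higher, none was lower and 5 did not pass, with a median difference of 0.76. Over all genes 18% were higher and 16.5% lower. Without control array 4, or without PMSG array 3, 4 of the 13 passed, and without PMSG array 4, 10 did. The shares of all probes called higher in these 3 fits were 12.9%, 15.1% and 27.6%.

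Kcnk2 encodes a leak channel opened by membrane stretch and by lipids. Its brightest probe, at chr13:105376012-105376071, read -0.38, -0.10, -0.85 and -0.41 on control arrays 1 to 4. On PMSG arrays 1 to 4 it read 2.30, 1.98, 1.92 and 1.96. All 4 PMSG values lay above all control values, and array 1 was the highest. The difference was 2.47 ± 0.17 (SE, n = 4 per group), or 5.55-fold, with an adjusted p of 7.51e-05.

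Kcnk12 encodes a halothane-inhibited family member that gives little current of its own. Its levels were 0.93, 0.91, 0.55 and 0.66 on the control arrays and 2.95, 2.47, 2.67 and 2.79 on the PMSG arrays. Within each label the arrays stayed close together, and the labels were clearly separate. It was 3.89-fold higher (1.96 ± 0.14, SE, n = 4 per group, adjusted p = 8.21e-05). Its relative Kcnk13 differed by 0.60 (adjusted p = 0.0478), from -0.97 to -0.76 on control arrays and from -0.71 to 0.29 on PMSG arrays. That call was lost without any 1 of the control arrays 1 to 4 or of the PMSG arrays 2 and 3, at adjusted p of 0.0745 to 0.113.

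Kcnk7, a subunit for which no current of its own is known, read -2.76, -3.72, -2.93 and -3.31 on control arrays. On PMSG arrays it read -1.68, -1.72, -1.65 and -1.14, with array 4 apart from 3 nearly equal values. The groups did not overlap, and the difference was 1.63 ± 0.23 (SE, n = 4 per group, adjusted p = 0.00123).

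Kcnk18 encodes a leak channel switched on by calcineurin. It read -6.98, -5.71, -6.09 and -6.18 on control arrays and -4.53, -5.54, -4.86 and -5.55 on PMSG arrays, where arrays 1 and 3 were the higher pair. The groups met closely without overlapping, with a difference of 1.12 ± 0.32 (SE, n = 4 per group, adjusted p = 0.0296). Leaving out control array 1, 3 or 4 or PMSG array 1 or 3 ended the call, at adjusted p of 0.0529 to 0.0719. With normexp background correction and an offset of 50, which draws dim signals together, the difference was 0.36 and did not pass (adjusted p = 0.0577).

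Among the other leak channels, Kcnk5, activated by alkaline pH, rose by 0.76 (adjusted p = 0.00628) and kept its call with each array left out. Kcnk16, another alkaline-activated channel best known from the pancreas, differed by 0.95 (adjusted p = 0.0200), and lost its call without control array 2, 3 or 4 or PMSG array 2 or 3 (0.0517 to 0.0576). The acid-sensitive channel Kcnk9 was well above background on all 4 PMSG arrays and on 3 of 4 control arrays, with a bound of 2.11-fold higher. Such a bound sets dim arrays at no less than the lowest signal that counts as well above background. It takes group means without their error, so the fold may be smaller. The fitted difference of Kcnk9 was 1.47 (adjusted p = 0.0288), and it missed the threshold without control array 1 or 4 or PMSG array 1 or 3 (0.0564 to 0.0739). Normexp gave 0.40, which did not pass (adjusted p = 0.0541). The 5 that did not pass were Kcnk4 at 0.63, the acid-sensitive Kcnk3 at 0.61, Kcnk1 at 0.59, Kcnk10 at 0.54 and Kcnk6 at 0.21. Of these, Kcnk3 and Kcnk4 passed without PMSG array 4 (0.88 and 0.80, adjusted p = 0.0194 and 0.0202).

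**Figure D2:**
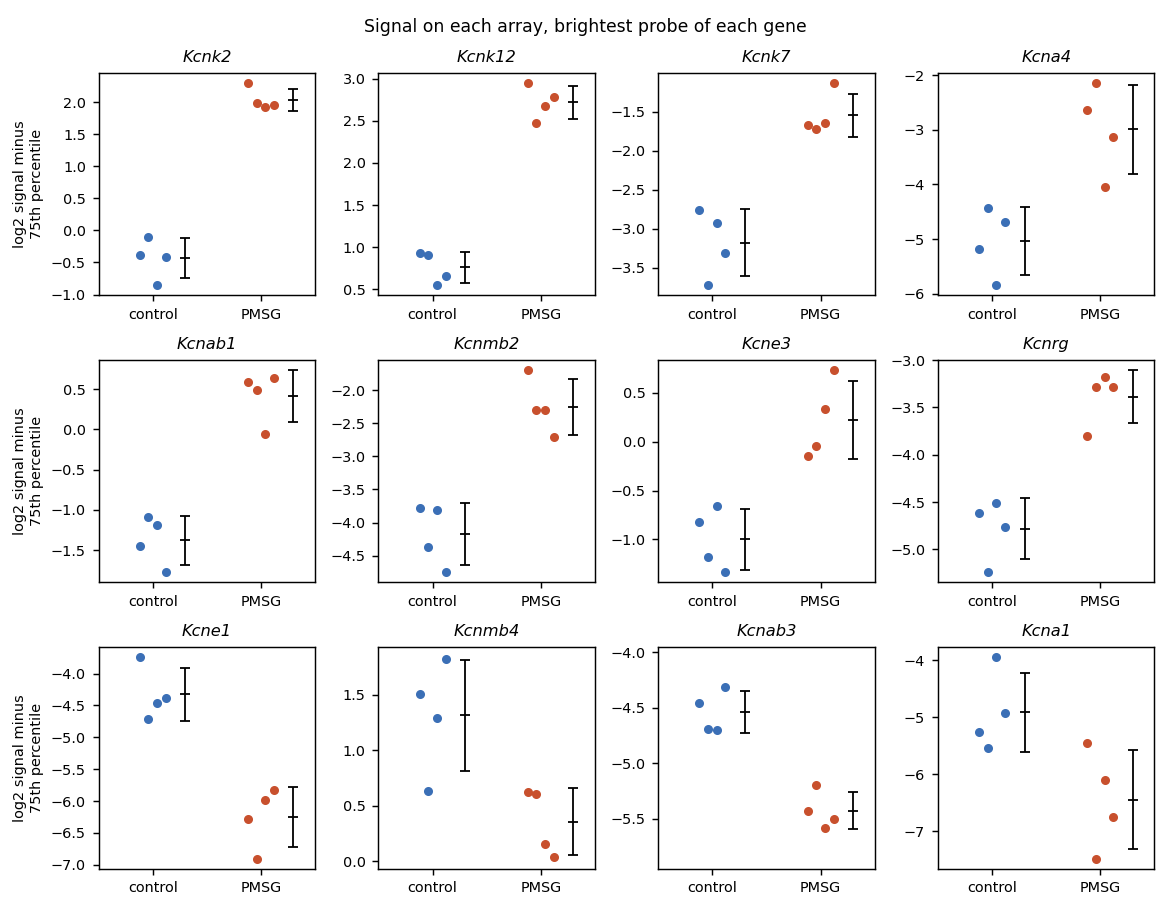
Level on each array (log2 signal minus the array's 75th percentile, y axis, a separate scale for each gene) for the brightest probe of 12 genes; points are arrays, bars are mean ± SD with 4 arrays per label. Kcnk2 lies between -0.85 and -0.10 on control arrays and between 1.92 and 2.30 on PMSG arrays, and the genes of the bottom row (Kcne1, Kcnmb4, Kcnab3 and Kcna1) are lower on the PMSG-labelled arrays.

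Voltage-gated pore subunits, the largest group, seldom passed. These subunits open on depolarisation and shape repolarisation, and members of the Kcng, Kcns, Kcnf and Kcnv families are silent alone and modify other pores. Of 31 tested genes 4 were higher, 2 were lower and 25 did not pass, with a median difference of 0.40 and 22 values above 0. Over all genes 18% were higher and 16.5% lower. Without PMSG array 4 the counts were 12 higher and none lower, while 27.6% of all probes were then higher and 17.4% lower. Among the 8 gained were Kcna6, Kcnc4, Kcnd3, Kcnf1, Kcnh4, Kcnh6 and Kcnq3, and the 8 had differences of 0.61 to 1.51 on the remaining arrays and 0.41 to 1.11 on all arrays.

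Kcna4 encodes a pore that inactivates fast and gives a transient current. It read -5.19, -4.44, -5.84 and -4.69 on control arrays and -2.64, -2.15, -4.06 and -3.12 on PMSG arrays. Array 3 was the lowest of both labels, yet the groups did not overlap. The difference was 2.04 ± 0.44 (SE, n = 4 per group), a 4.12-fold rise with an adjusted p of 0.00877. With normexp it was 1.14 (adjusted p = 0.00255).

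Kcna5 encodes a delayed rectifier pore. Its control values were -6.09, -6.70, -6.37 and -6.49 and its PMSG values -4.92, -5.23, -4.71 and -5.99, of which array 4 came nearest to the controls. It rose by 1.20 ± 0.27 (SE, n = 4 per group, adjusted p = 0.0108). Under normexp the difference was 0.36 and did not pass (adjusted p = 0.0649).

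Kcnh3, an eag-like pore known mainly from forebrain, read -0.67, -0.68, -0.63 and -0.69 on control arrays and 0.09, 0.13, 0.54 and 0.32 on PMSG arrays. Its difference was 0.94 ± 0.12 (SE, n = 4 per group, adjusted p = 0.000698). Kcng3, a silent subunit, was well above background on 3 control arrays and 4 PMSG arrays, with a bound, taken as for Kcnk9, of 1.75-fold higher. Its fitted difference of 0.98 (adjusted p = 0.0320) did not pass without control array 2 or 4 or PMSG array 2 or 3 (0.0534 to 0.0806), nor with normexp (0.32, adjusted p = 0.0532).

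Both lower calls among the voltage-gated pores lay near the threshold, and each was lost when any 1 of 6 arrays was left out. Kcna1, a delayed rectifier pore of axons, read -5.27, -5.53, -3.94 and -4.92 on control arrays and -5.44, -7.48, -6.11 and -6.76 on PMSG arrays. PMSG array 1 lay inside the control range. The difference was -1.53 ± 0.48 (SE, n = 4 per group, adjusted p = 0.0405), and it was lost without control array 1, 3 or 4 or PMSG array 2, 3 or 4 (0.0608 to 0.0891). With normexp it was -0.28 (adjusted p = 0.235), and in the authors' deposited log2 table it was -0.74 (adjusted p = 0.175). Kcng2, a silent subunit, had control values of 1.90, 1.97, 1.42 and 1.84 and PMSG values of 1.62, 1.04, 1.30 and 0.98. Here PMSG array 1 lay above control array 3. Its difference of -0.55 ± 0.18 (SE, n = 4 per group, adjusted p = 0.0485) did not pass without control array 1, 2 or 4 or PMSG array 2, 3 or 4 (0.0770 to 0.121).

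Auxiliary subunits moved in both directions. They include the cytoplasmic Kcnab subunits of Kcna pores, the single-span Kcne subunits, the calcium-binding Kcnip subunits of Kcnd pores and the Kcnmb subunits of the large-conductance calcium-activated channel. Of 15 tested genes 6 were higher, 3 were lower and 6 did not pass, and the median difference was 0.61. Over all genes 34.5% were called, 18% higher and 16.5% lower, and in 37% the groups did not overlap. The 9 called genes were also the 9 whose groups did not overlap, and both counts rest on the same array values.

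Kcnmb2, which makes the large-conductance channel inactivate, read -3.77, -4.37, -3.82 and -4.75 on control arrays and -1.69, -2.30, -2.30 and -2.71 on PMSG arrays. The lowest PMSG array stood about as far above the highest control array as the control arrays spread among themselves. Its rise was 1.92 ± 0.28 (SE, n = 4 per group, adjusted p = 0.00136). With normexp it was 1.26 (adjusted p = 0.000549).

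Kcnab1, which gives Kcna pores fast inactivation, read -1.45, -1.09, -1.19 and -1.77 on control arrays and 0.59, 0.49, -0.05 and 0.64 on PMSG arrays. Only PMSG array 3 stayed below the 75th percentile of its array, and no value overlapped. The difference was 1.79 ± 0.20 (SE, n = 4 per group), 3.47-fold, with an adjusted p of 0.000476. Of the Kcna pores, Kcna4 and Kcna5 rose and Kcna1 fell, while Kcna6 (0.73), Kcna7 (0.06) and Kcna10 (0.44) did not pass. Kcna2 and Kcna3 were not tested. Kcnab2 at 0.16 did not pass and Kcnab3 fell. Kcnab3 read -4.45, -4.69, -4.70 and -4.31 on control arrays and -5.43, -5.20, -5.58 and -5.50 on PMSG arrays. Values lay close together within each label, and the fall was -0.89 ± 0.13 (SE, n = 4 per group, adjusted p = 0.00155). With normexp it was -0.23 and did not pass (adjusted p = 0.0840).

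Kcnip1, a calcium sensor that brings Kcnd pores to the membrane, read -4.39, -5.11, -5.13 and -5.53 on control arrays. Its PMSG values were -3.50, -4.24, -3.45 and -3.69, of which array 2 came nearest to the controls. It rose by 1.32 ± 0.27 (SE, n = 4 per group, adjusted p = 0.00629), and by 0.58 with normexp (adjusted p = 0.00813). The X-linked Kcne1l, named Kcne5 in RefSeq, rose by 0.71 (adjusted p = 0.0180, and 0.42 with normexp).

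Kcnmb4, which slows opening of the large-conductance channel in neurons, read 1.51, 0.63, 1.29 and 1.82 on control arrays and 0.62, 0.60, 0.15 and 0.04 on PMSG arrays. Control array 2 was almost level with the 2 highest PMSG arrays. It was 1.94-fold lower (-0.96 ± 0.26, SE, n = 4 per group, adjusted p = 0.0238), and missed the threshold without control array 1, 3 or 4 or PMSG array 3 (0.0514 to 0.0623).

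Inward rectifiers pass potassium into the cell more easily than out. Of 15 genes only 8 could be tested. Across the array 34.5% of all genes were called, 18% higher and 16.5% lower. Kcnj12, a strong rectifier of heart and muscle, was the single call. It read -5.15, -5.62, -5.34 and -5.39 on control arrays and -4.64, -4.79, -4.34 and -4.89 on PMSG arrays, without overlap. It rose by 0.71 ± 0.15 (SE, n = 4 per group, adjusted p = 0.00828), and with normexp by 0.33, which did not pass (adjusted p = 0.0527). Kcnj5, a G protein-gated rectifier, differed by 1.23 on 3 PMSG and 1 control array above background, and did not pass (adjusted p = 0.0940). The remaining 6 lay between -0.37 and 0.57. Without PMSG array 4, Kcnj3 and Kcnj9 rose and Kcnj8 fell (0.74, 0.57 and -0.45). In that fit 27.6% of all probes were higher and 17.4% lower.

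None of the 6 tested genes for calcium- or sodium-activated pores passed by the brightest probe. These were Kcnma1 at 0.61, Kcnt2 at 0.53, Kcnn3 at 0.49, Kcnn1 at 0.33, Kcnn4 at 0.26 and Kcnt1 at 0.03. All 6 values were above 0, against 58.8% of all genes, and 34.5% of all genes were called. Without PMSG array 4, Kcnma1 (0.91) and Kcnt2 (0.88) passed, with adjusted p of 0.0275 and 0.0271. That fit called 27.6% of all probes higher and 17.4% lower.

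Kcnrg encodes a soluble protein that hinders assembly of voltage-gated pores. It read -4.62, -5.24, -4.51 and -4.76 on control arrays and -3.80, -3.28, -3.18 and -3.29 on PMSG arrays. PMSG array 1 was the lowest of its label and still above every control array. Its rise was 1.40 ± 0.20 (SE, n = 4 per group), or 2.63-fold, with an adjusted p of 0.00124. Normexp gave 0.74 (adjusted p = 0.000952).

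Channels whose subunits work together were compared subunit by subunit, as each probe's own difference. Kcnq1 is a pore that Kcne1 turns into the slow delayed rectifier, and that Kcne2 or Kcne3 turns into a channel that stays open in epithelia. Kcnq1 itself read 1.23, 1.31, 0.97 and 1.19 on control arrays and 0.85, 1.02, 1.07 and 0.98 on PMSG arrays. These ranges overlapped, and the difference of -0.19 did not pass (95% confidence interval -0.44 to 0.05, adjusted p = 0.191). Its second probe differed by 0.07.

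The 3 Kcne partners went apart. Kcne1 read -3.74, -4.71, -4.46 and -4.39 on control arrays and -6.28, -6.90, -5.98 and -5.83 on PMSG arrays, a wide gap. It was well above background on 4 control and 2 PMSG arrays, and was at least 3.45-fold lower (fitted difference -1.93 ± 0.28, SE, n = 4 per group, adjusted p = 0.00138). Under normexp its difference was -0.51 (adjusted p = 0.0123).

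Kcne2 read 3.68, 3.90, 2.98 and 3.80 on control arrays and 4.61, 4.52, 4.06 and 4.48 on PMSG arrays. Array 3 was lowest in both labels, and the groups did not overlap. It was 1.77-fold higher (0.83 ± 0.22, SE, n = 4 per group, adjusted p = 0.0208), and missed the threshold without PMSG array 1 or 2 (0.0557 and 0.0525). Centring on the array median gave 0.66, which did not pass (adjusted p = 0.0804). The Kcne1 and Kcne2 probes lie 54.1 kb apart on chromosome 11. Kcne3 read -0.82, -1.18, -0.66 and -1.33 on control arrays and -0.15, -0.05, 0.33 and 0.73 on PMSG arrays. It rose by 1.21 ± 0.23 (SE, n = 4 per group, adjusted p = 0.00464).

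The large-conductance channel has Kcnma1 as its pore. By its brightest probe Kcnma1 read -2.39, -3.19, -3.10 and -3.08 on control arrays and -2.11, -2.41, -1.56 and -3.24 on PMSG arrays. PMSG array 4 lay below every control array, and the difference did not pass (adjusted p = 0.204). Among its Kcnmb subunits, Kcnmb2 rose and Kcnmb4 fell, as given above. Kcnmb1, the smooth muscle subunit, read -4.94, -3.82, -4.02 and -4.57 on control arrays and -4.93, -4.77, -4.37 and -3.08 on PMSG arrays. Its difference of 0.05 did not pass (adjusted p = 0.932), with a confidence interval of -0.93 to 1.04, and turned negative under both quantile normalization and median centring. Kcnmb3 read -3.54, -4.67, -4.61 and -4.80 on control arrays and -2.69, -3.75, -2.49 and -4.67 on PMSG arrays. It did not pass with all arrays (1.01, adjusted p = 0.158) and passed without PMSG array 4 (1.43, adjusted p = 0.0257).

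ATP-sensitive channels pair a Kcnj8 or Kcnj11 pore with a sulfonylurea receptor, Abcc9 or Abcc8. Kcnj8, the vascular pore, read 2.63, 2.92, 2.79 and 2.75 on control arrays and 2.42, 2.37, 2.19 and 2.65 on PMSG arrays. Only PMSG array 4 reached the control range. The difference of -0.37 ± 0.12 (SE, n = 4 per group) stood at the threshold, at an adjusted p of 0.0501, and passed without PMSG array 4 (-0.45, adjusted p = 0.0147). Its receptor Abcc9 fell by 0.69 on the log2 scale (adjusted p = 0.00225), from 0.31 to 0.64 on control arrays to -0.42 to -0.14 on PMSG arrays. Kcnj11, the pore of pancreatic beta cells, read -4.70, -5.84, -5.05 and -5.53 on control arrays and -4.76, -5.81, -4.96 and -5.92 on PMSG arrays. These were almost the same range, with a difference of -0.08 that changed sign under normexp (0.07) and array weights (0.12). Its receptor Abcc8 rose by 1.30 (adjusted p = 0.00112), from -4.34 to -4.20 on control arrays to -3.36 to -2.61 on PMSG arrays. With normexp Abcc8 was at 0.80 (adjusted p = 0.00202).

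Transient Kcnd currents need a Kcnd pore, a Kcnip subunit and a dipeptidyl peptidase-like protein, Dpp6 or Dpp10. Kcnd1 read -2.97, -3.02, -2.74 and -2.96 on control arrays and -3.37, -3.03, -2.76 and -2.69 on PMSG arrays. Kcnd2 read -4.84, -4.03, -4.31 and -4.68 on control arrays and -4.56, -4.98, -4.60 and -5.52 on PMSG arrays. Kcnd3 read -2.63, -2.78, -2.70 and -2.89 on control arrays and -2.05, -2.57, -1.81 and -2.93 on PMSG arrays. In all 3 the labels overlapped, and the differences of -0.04, -0.45 and 0.41 did not pass. With quantile normalization Kcnd2 passed (-0.69, adjusted p = 0.0201), and without PMSG array 4 Kcnd3 passed (0.61, adjusted p = 0.0310).

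Of the Kcnip subunits, Kcnip1 rose as given above and Kcnip4 was not tested. Kcnip2 read -5.76, -5.41, -5.10 and -5.74 on control arrays and -5.66, -5.78, -5.51 and -6.56 on PMSG arrays. Its difference of -0.38 did not pass, while quantile normalization gave -0.68 (adjusted p = 0.00898) and normexp 0.04. Kcnip3 read -3.72, -3.71, -3.59 and -4.03 on control arrays and -3.68, -3.77, -3.62 and -3.28 on PMSG arrays, a difference of 0.18 that did not pass and that quantile normalization turned to -0.04. Dpp6 rose by 0.90 (adjusted p = 0.0123) and Dpp10 by 1.40 (adjusted p = 0.00284). Under normexp Dpp10 was at 0.46 (adjusted p = 0.0206). Dpp6 was then at 0.35 and did not pass (adjusted p = 0.0512), nor did it with quantile normalization (0.61, adjusted p = 0.0515).

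**Figure D3:**
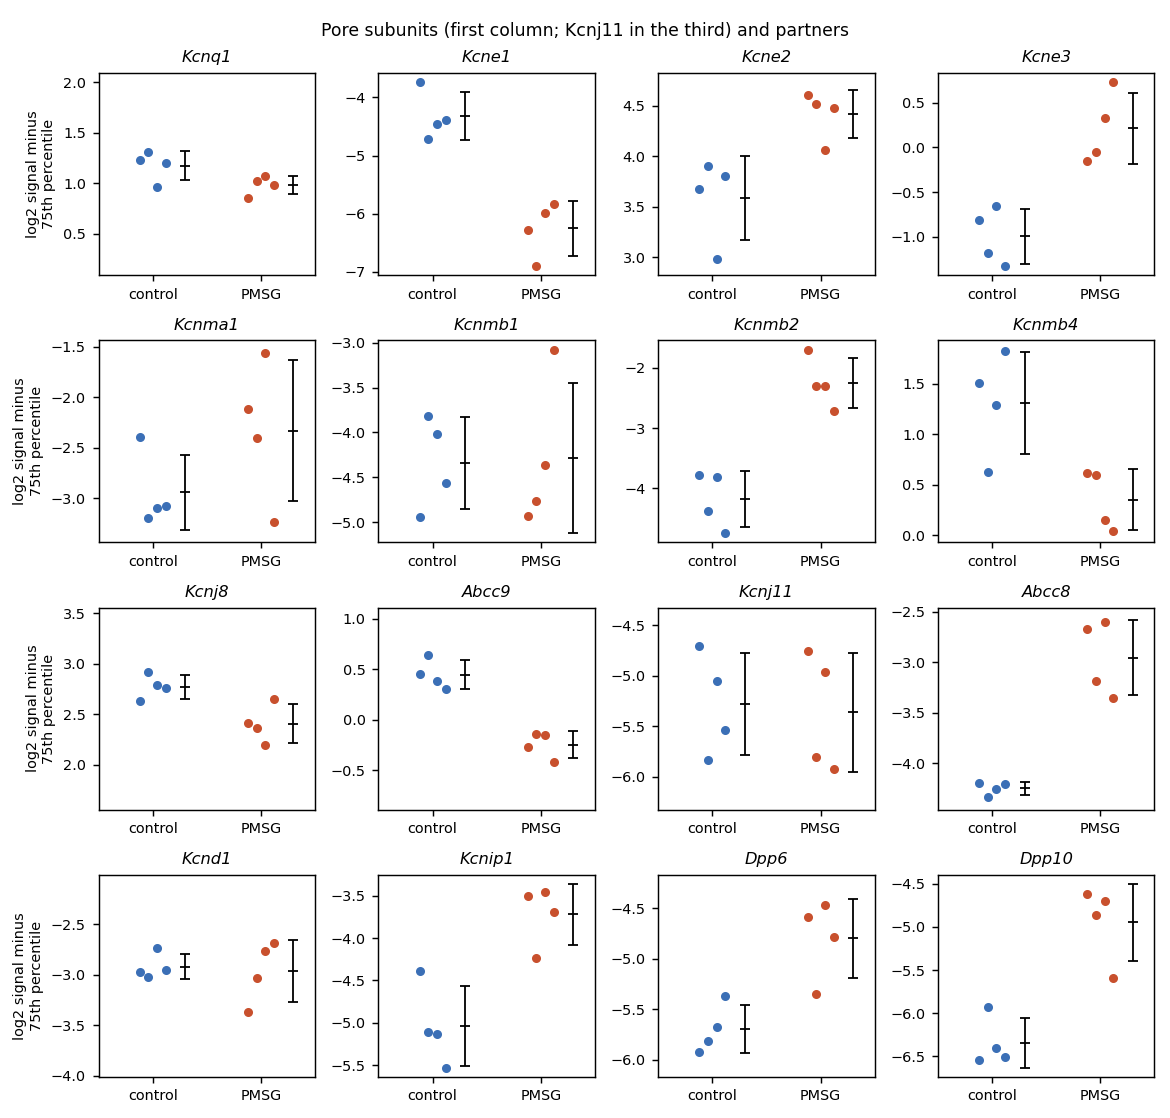
Level on each array (log2 signal minus the array's 75th percentile, y axis, a separate scale for each gene, spanning at least 2 units) of pore subunits and partners; points are arrays and bars are mean ± SD with 4 arrays per label. In the top row Kcnq1 overlaps between labels at a difference of -0.19, Kcne1 is lower and Kcne2 and Kcne3 are higher; in the third row Abcc9 is lower and Abcc8 higher, with Kcnj8 and Kcnj11 beside them.

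For 22 genes more than 1 probe was tested, so the same gene was read more than once. All probes were called for 3 genes, some for 6 and none for 13, and no gene had calls in both directions. Kcnab1 was higher by both probes (1.79 and 2.25), as were Kcnk7 (1.63 and 1.34) and Kcnmb2 (1.92 and 1.06). For Kcnh3, Kcnk13 and Kcnk16 the call came from 1 of 2 tested probes.

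Kcnk2 was read by 3 probes. The pair at chr13:105376012-105376071 and chr13:105377801-105377860 rose by 2.47 and 2.27, the latter from -7.15, -6.33, -6.98 and -6.80 on control arrays to -4.40, -4.06, -4.34 and -5.37 on PMSG arrays. With normexp this dim second probe was at 0.67 (adjusted p = 0.00442), while the brightest was at 2.37. The third, whose sequence is printed above and which lies 43.3 kb from the brightest, read -3.05, -4.39, -3.15 and -4.63 on control arrays and -3.22, -3.54, -2.05 and -3.19 on PMSG arrays. That probe overlapped between labels and did not pass (0.80, 95% confidence interval -0.24 to 1.85, adjusted p = 0.203). Whether the probes read different transcripts was not tested.

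Kcng1 split in the other way. Its repeat probes, which are also its brightest, read 4.22, 4.40, 4.50 and 4.26 (A_64_P104301) and 4.08, 4.28, 4.45 and 4.14 (A_64_P124781) on control arrays. On PMSG arrays they read 4.55, 3.81, 4.87 and 3.83, and 4.45, 3.65, 4.74 and 3.73. The pair moved alike on every array, high on PMSG arrays 1 and 3 and low on 2 and 4, with differences of -0.08 and -0.10 that did not pass. As these probes share long stretches with probes of other names, the Kcng1 value by brightest probe is uncertain. The probe A_64_P097376 read -4.31, -3.77, -3.19 and -4.77 on control arrays and -3.21, -3.02, -2.02 and -1.38 on PMSG arrays, where array 1 fell just short of the highest control. It rose by 1.60 ± 0.48 (SE, n = 4 per group, adjusted p = 0.0322), lost without control array 1, 2 or 4 or PMSG array 3 (0.0588 to 0.0840). Normexp gave 1.07 (adjusted p = 0.0187), and with quantile normalization it did not pass (1.40, adjusted p = 0.0534). The fourth, A_64_P097372, differed by 0.06.

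Kcnma1 has 3 tested probes with differences of 0.61, 0.61 and 1.35. The last, A_64_P131632, read -3.59, -4.91, -4.50 and -5.26 on control arrays and -3.52, -3.67, -3.33 and -2.33 on PMSG arrays. Here PMSG array 4 was the highest, whereas by the brightest probe it was the lowest of all 8. The probe was called (adjusted p = 0.0346), with the call lost without control array 2, 3 or 4 or any 1 of the PMSG arrays 1, 3 and 4 (0.0508 to 0.0883). Normexp gave 0.78 (adjusted p = 0.0238), and with quantile normalization it did not pass (1.11, adjusted p = 0.0731).

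**Figure D4:**
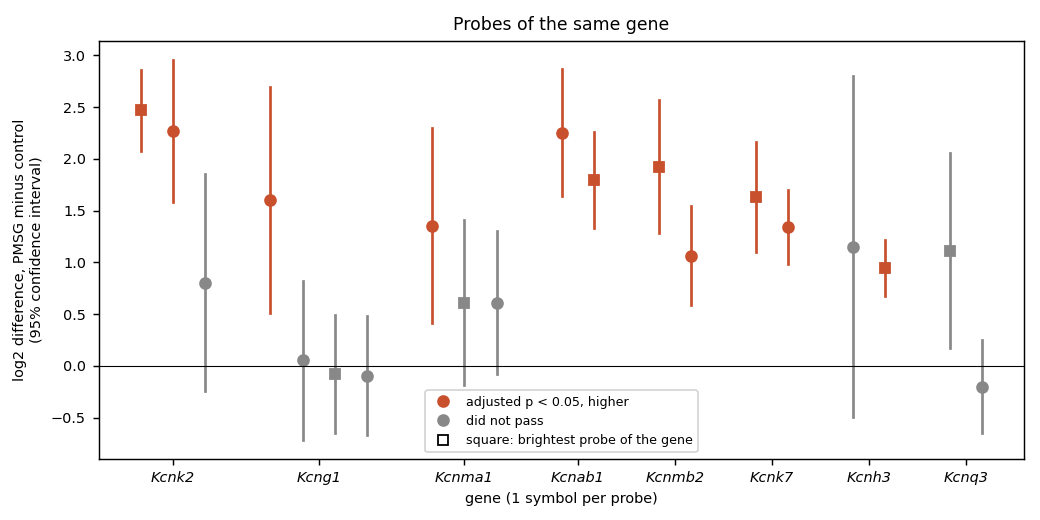
Difference between the arrays labelled PMSG and control (log2, y axis) with the 95% confidence interval for each tested probe of 8 genes; squares mark the brightest probe and red marks an adjusted p under 0.05. The 3 probes of Kcnk2 lie at 2.47, 2.27 and 0.80, and of the 4 Kcng1 probes only the one at 1.60 passed.

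Detection of the channel probes was uneven. Of 134 probes, 89 gave signal well above background on 8 of 8 arrays, 12 on 4 to 7, 17 on 1 to 3 and 16 on none. No channel probe was detected on every array of a label while missing from every array of the other. The number above background was 101, 98, 100 and 96 on control arrays and 100, 103, 106 and 110 on PMSG arrays, with PMSG array 1 inside the control range. The means were 98.75 ± 2.22 and 104.75 ± 4.27 (SD, n = 4 per group), which an exact two-sided permutation test did not separate (p = 0.0857, the smallest possible being 0.0286). Over all probes the shares were 81.9% ± 0.972 and 83.4% ± 1.12 (SD, n = 4 per group).

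A set of 19 genes could not be tested. They include 7 inward rectifiers (Kcnj1, Kcnj2, Kcnj6, Kcnj10, Kcnj13, Kcnj15 and Kcnj16) and 9 voltage-gated pores (Kcna2, Kcna3, Kcnc1, Kcng4, Kcnh5, Kcnh7, Kcnh8, Kcns1 and Kcnv1), with Kcnip4, Kcnk15 and Kcnn2. Chosen after their values were seen, Kcna2 and Kcnn2 are named because each was above background on 0 control and 3 PMSG arrays. Kcna2, an axonal pore, read -7.91, -8.09, -7.46 and -8.90 on control arrays and -6.84, -5.66, -5.82 and -6.16 on PMSG arrays. Kcnn2, a small-conductance calcium-activated pore, read -8.22, -8.24, -8.08 and -8.12 on control arrays and -6.49, -5.67, -6.71 and -5.66 on PMSG arrays.

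Many channel probes were dim, and the size of differences varied with signal across the array. All tested probes were cut into 4 equal bins of mean signal, and of the 101 channel probes 43 lay in the lowest bin and 34 in the second, with 12 in each of the upper bins. In the lowest bin the median difference of all probes was 0.34 and that of the channel probes 0.61. There 9 of 43 channel probes were higher and 3 lower, against 17.0% and 5.91% of all probes. In the second bin the medians were 0.19 and 0.57. There 9 of 34 were higher and none lower, against 19.4% and 13.0%. For the 12 probes of the third bin the medians were 0.00 and 0.33, and for the 12 of the highest -0.03 and 0.16, both on few probes. Calls in the third bin were 4 higher and 0 lower, against 19.9% and 23.6% of all probes. In the highest bin they were 4 and 2, against 14.1% and 24.0%. Signal level thus moved with the result, and its part in it was not tested.

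**Figure D5:**
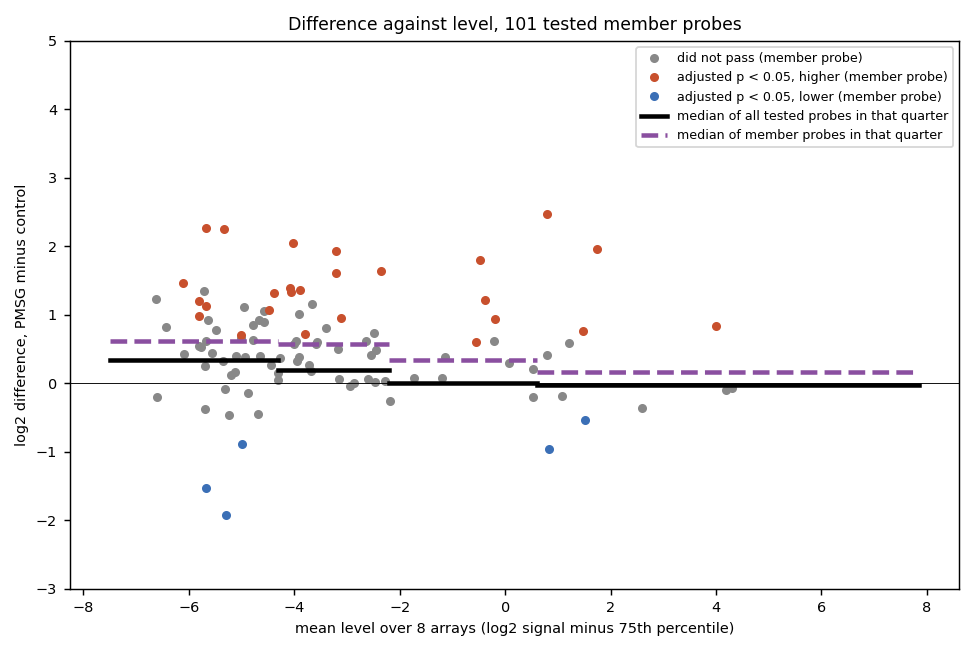
Difference between the arrays labelled PMSG and control (log2, y axis) against the mean level over 8 arrays (log2 signal minus the 75th percentile, x axis) for the 101 tested potassium channel probes. Solid lines give the median of all tested probes in each of 4 equal bins of signal (0.34, 0.19, 0.00 and -0.03) and dashed lines that of the channel probes (0.61, 0.57, 0.33 and 0.16).

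Other genes of potassium handling were counted for comparison, by brightest probe, on an array where 34.5% of all genes were called. The sodium-potassium pump, which builds the gradient that the channels use, had 6 of 13 tested genes higher and 3 lower. Those higher included the regulators Fxyd4 (2.46), Fxyd3 (2.32) and Fxyd1 (1.35) and the beta subunit Atp1b2 (0.80). Those lower included the regulator Fxyd5 (-1.19) and the beta subunit Atp1b1 (-0.66). Among 6 potassium-chloride and sodium-potassium-chloride cotransporters 3 were higher and 1 lower. Slc12a1, at 1.13, kept its call with each array left out. Slc12a5, at 0.51, lost it in 6 of 8 such fits, with an adjusted p of up to 0.0800, and the lower gene Slc12a7, at -0.36, in 7 of 8, with one of up to 0.110. Of 9 tested cyclic nucleotide-gated channels 1 was higher and 1, Cnga1, was lower. Cnga1 was above background on 4 control arrays and none labelled PMSG, with a bound, taken as for Kcnk9, of 2.68-fold lower. Channel partners outside the Kcn names gave 3 higher and 1 lower of 8 tested, all named above.

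Promoters of the members were searched for motifs, in RefSeq sequence of the build GRCr8 from 250 bases before to 50 after the gene start. Of 93 members 62 had an entry, 13 of them called higher and 4 called lower. The motifs were TGACGTCA (cAMP response element), its core TGACG, CAAGGTCA (a site of NR5A receptors), GGGCGG (GC box) and TATAAA, each on both strands, and TGACG overlaps TGACGTCA. TGACG occurred in 13 of 62 members (21.0%) and in 22.0% of all 27457 promoters. It was present in 1 of 13 genes called higher, Kcnab1, and in 2 of 4 called lower, Kcnab3 and Kcne1. GGGCGG occurred in 31 members (50%) and 34.9% of all promoters, with 3 of 13 higher and 2 of 4 lower genes. TATAAA occurred in 2 members (14.3% of all), and TGACGTCA and CAAGGTCA in none (1.91% and 1.48% of all). The promoters of Kcnab1, at chr2:151614301-151614600 on the plus strand, and Kcne1, at chr11:45076984-45077283 on the minus strand, are printed as the clear rise and the clear fall that both hold the core, which is in capitals. A match is a description of letters only.
Kcnab1 promoter: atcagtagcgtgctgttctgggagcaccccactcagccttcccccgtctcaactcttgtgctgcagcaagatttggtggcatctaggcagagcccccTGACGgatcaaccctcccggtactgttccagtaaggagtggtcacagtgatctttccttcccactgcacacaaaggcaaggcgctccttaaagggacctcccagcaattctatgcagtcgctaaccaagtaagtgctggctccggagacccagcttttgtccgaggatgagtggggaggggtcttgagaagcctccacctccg
Kcne1 promoter: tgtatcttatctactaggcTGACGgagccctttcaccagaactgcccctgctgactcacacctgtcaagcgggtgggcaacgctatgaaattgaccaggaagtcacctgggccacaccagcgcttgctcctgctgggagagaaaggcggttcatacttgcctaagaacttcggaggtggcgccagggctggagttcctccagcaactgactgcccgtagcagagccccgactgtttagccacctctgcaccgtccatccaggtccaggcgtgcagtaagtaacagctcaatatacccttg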

How the data were processed

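RNA from 8 ovary samples was hybridised to 1-colour Agilent arrays on 1 slide. Per the file headers, Agilent Feature Extraction (version 11.5.1.1) gave the deposited intensity values, and probe positions are on rn4 (RGSC 3.4). The authors also deposited log2 values, which served as an alternative, and 8 of 8 columns correlated best with their own array. Their median offsets from log2 signal minus the 75th percentile were 0.0044 to 0.015. Single dim probes could differ, as for Kcna1 (a difference of -0.74 against -1.53). Columns not used numbered 0.

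From the deposited scanner files, control and outlier spots were left out, log2 processed signals were averaged per probe (17 probes without a usable spot on some array were dropped) and scaled by each array's 75th percentile. Probes well above background (at least 0.5 of their spots) on at least 4 of 8 arrays were tested, 25303 in all. The test was lmFit with eBayes from limma 3.58.1 (R 4.3.3) on the 2 groups without covariates, and p-values were adjusted over these probes by Benjamini-Hochberg, at a threshold of 0.05. A gene stands by its brightest tested probe. No spot was saturated (0 spots). Precision is limited by having 4 arrays a group.

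In simulated data of 25303 probes with 200 changed, the procedure recovered 61% of changes of log2 size 1 and 78% of size 2. In the real data 34.2% of probes were called, and the Benjamini-Hochberg adjustment depends on that share. The simulated rates therefore do not measure the recovery of the tests above, where changes of these sizes can still be missed. A first target of higher recovery for that check was not met and was replaced after this result was seen.

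The members and lists were chosen with earlier results of these data known. In each role, genes with every array's value are up to 4 per direction with the largest called difference among probes above background on all 8 arrays, genes with a bound, and known partners. The others are named with their difference or counted. Replicate numbers did not pair the samples (correlations of same-numbered deviations were 0.04, 0.04, 0.18 and -0.02). Alternatives covered background correction, scaling, filters, the deposited table, array weights, blocks, the probe chosen and single arrays left out. Of the member symbols, 92 were RefSeq symbols and 1 a synonym. The granulosa marker Cyp19a1 was not analysed here. Values of a few single genes are not reported here.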

Additional observations from a re-analysis of the deposited data

Results flagged for a closer look

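In 80 groups of 4 values, those of the 40 genes given array by array or called, 4 had an array whose gap to the nearest other was over the 95% limit of Dixon's criterion for 4 samples, and chance gives about 1 in 20 groups, or 4. The gap is given as a share of the group's range. Kcnk2 was highest on PMSG array 1 (share 0.840), at 2.30 against 1.92 to 1.98 on the other arrays of that label. Kcnk7 was highest on PMSG array 4 (share 0.882), at -1.14 against -1.72 to -1.65. Kcnma1 was highest on control array 1 (share 0.860), at -2.39 against -3.19 to -3.08. Kcnmb3 was also highest on control array 1 (share 0.849), at -3.54 against -4.80 to -4.61.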

How the results depend on the processing

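Of 25 called genes, 13 kept their call and direction under every one of 17 alternatives in which they could be tested (Kcna4, Kcnab1, Kcne1, Kcne1l, Kcne3, Kcnh3, Kcnip1, Kcnk2, Kcnk5, Kcnk7, Kcnk12, Kcnmb2 and Kcnrg; Kcne1 is absent from the filter on all 8 arrays). The other 12 lost the call under some, and none changed direction. With normexp 13 of the 25 differences moved by over 1.5 times, all of dim probes, and 18 calls remained past the threshold. Calls among member probes numbered 31, 21 to 47 with single arrays left out and 31 without the repeat probes, an alternative added after seeing the data. All probes gave 8658, and 6552 to 11382 with single arrays left out. Genes higher numbered 20, 33 with array weights (where 43.5% of all probes were called) and 15 to 36 with single arrays left out (highest without PMSG array 4). Genes lower numbered 5, then 3 without a filter, 3 with array weights, 3 with the replicate block and 2 to 5 with single arrays left out. Genes with a 2-fold difference numbered 14, 7 with normexp and 2 when tested against a log2 difference of 1. The replicate block, used although the numbers did not pair the samples, gave 30 member probes, 7346 of all probes and 23 higher genes, with 20 of the 25 calls shared.

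Differences that changed sign were all of genes that had not passed. Kcnd1 was at 0.027 with normexp and -0.13 to 0.094 with single arrays left out. Kcnip2 was at 0.041 with normexp and Kcnip3 at -0.040 with quantile normalization. Kcnj11 was at 0.070 with normexp, 0.12 with array weights and -0.28 to 0.11 with single arrays left out. Kcnmb1 was at -0.23 with quantile normalization, -0.12 with median centring, -0.29 with array weights and -0.35 to 0.27 with single arrays left out. The Kcng1 repeat probe was at 0.030 with quantile normalization, 0.0040 with array weights and -0.28 to 0.075 with single arrays left out. The cause of these moves was not tested. Dim signal limits the rest: 33 of 134 member probes were too near background to test.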

Other observations

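Probes that concern potassium channels but carry other names were outside the rule and were not counted. LOC60591, described as a beta subunit of the large-conductance calcium-activated channel, read -2.95, -5.48, -5.13 and -5.26 on control arrays and -3.08, -4.07, -3.28 and -5.14 on PMSG arrays. Control array 1 was the highest of all 8 arrays, and the difference of 0.81 did not pass (limma, adjusted p = 0.353). A probe for a Kcna3 transcript (TC574813) was above background on 1 PMSG array only, and one for a Kcnip2 isoform (AB040032) on none.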
